A study of Mus musculus with 22 samples.

Results

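The 38 genes described here are expressed by the oligodendrocyte lineage or encode parts of myelin, and were followed in 39179 genes counted by RNA-seq in *Phf8* knockout (KO) and wild type (WT) mouse cells and brain tissue. They were taken by name from a list of lineage and myelin genes, chosen with earlier results of these data known. All 38 had a row in the count tables. For description they were divided into 6 genes of oligodendrocyte precursors and of the lineage as a whole (*Pdgfra*, *Cspg4*, *Olig1*, *Olig2*, *Sox10* and *Nkx2-2*), 4 genes of newly formed oligodendrocytes (*Gpr17*, *Enpp6*, *Bcas1* and *Myrf*), and 28 genes of myelinating oligodendrocytes.

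Oligodendrocytes are the glial cells that wrap axons of the central nervous system in myelin, a stack of membrane rich in galactolipids and in a small set of abundant proteins. They arise from proliferating precursors, which respond to platelet-derived growth factor through PDGFRA and carry the proteoglycan NG2, the product of *Cspg4*. On leaving the cell cycle the precursors pass through a short premyelinating stage marked by GPR17 and BCAS1, and the transcription factors SOX10 and MYRF then drive the genes of the myelin sheath. Precursors remain in the adult brain beside the myelinating cells, so that bulk tissue holds RNA of every stage at once.

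The series held 22 RNA-seq libraries in 8 groups. Ventral striatum (STR) and prefrontal cortex (PFC) were taken from WT and KO mice at 2 months of age, with 3 samples per genotype and region. Neural progenitor cells (NPCs), with 3 samples per genotype, were grown as a monolayer from embryos, and embryonic stem cells (ESCs), with 2 samples per genotype, came from blastocyst outgrowths. The KO allele lacks a pair of exons from the catalytic JmjC region of the X-linked histone demethylase gene *Phf8*, was made in male V6.5 ESCs with Cre and is carried in the germ line on a mixed B6x129SvJ background, so no cell type was targeted. WT samples carried the intact allele on the same background, and the labels name no treatment. The labels do not say whether the samples of a group came from separate animals or cultures, so the p-values measure the spread between these samples, part of which may be technical.

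Between 5898286 and 15539811 reads per library were assigned to genes, with 5898286 to 10148073 in the PFC and 7159094 to 8594441 in the STR. Expression is given as CPM, read counts relative to the number of reads in genes after trimmed-mean scaling within a comparison, and each comparison was tested over all genes with the quasi-likelihood test of edgeR and Benjamini-Hochberg adjustment at 0.05. *Phf8* itself was at 42.7 to 50.6 CPM in WT and 16.0 to 22.5 CPM in KO PFC (log2 fold change -1.37, SE 0.13, adjusted p = 0.00193), and the KO range lay below the WT range in all 4 tissues and cell types. The remaining reads can come from exons outside the deleted ones. Summed markers of cortical excitatory neurons ranged from 1432 to 1719 CPM in the PFC and from 656 to 1314 CPM in the STR, those of striatal projection neurons from 391 to 457 CPM and from 2298 to 3112 CPM. Among the brain libraries, 1 stood apart: STR KO replicate 1, in which the median of 5 hypothalamic markers was 2.53 log2 units above the WT mean, against 0.52 and 0.68 in the other KO samples. Counts, stage medians and some gene values for the STR are given with and without it. The NPC cultures numbered 2 also stood apart, as given with the NPC values.

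In the PFC, the genes of myelinating oligodendrocytes were lower in KO than in WT mice, while the precursor genes *Pdgfra* and *Cspg4* differed by less than the spread between samples. The other precursor and lineage genes were also lower, each at an unadjusted p below 0.05 (edgeR). Their log2 fold changes were -0.60 for *Olig2*, -0.59 for *Sox10*, -0.42 for *Nkx2-2* and -0.31 for *Olig1*. Of the 38 genes, 23 fell and 0 rose at an adjusted p below 0.05 (edgeR), where 0.475% of the 15364 genes tested fell and 0.163% rose. The genes that fell comprised 20 of the 28 myelinating genes, 2 of the 4 newly formed genes (*Bcas1* and *Enpp6*) and 1 of the 6 precursor and lineage genes (*Sox10*). Median log2 fold changes were -0.70 for the myelinating, -0.75 for the newly formed and -0.37 for the precursor and lineage genes, against -0.02 for all genes tested. For the 23 genes that fell, mean CPM in KO differed from that in WT by -57.5% to -33.5%.

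Most of the genes that missed the threshold also lay on the lower side, 37 of the 38 fold changes being below 0, against 55.9% of all genes. At an unadjusted p below 0.05, 33 listed genes were lower and 0 higher, against 6.5% and 4.73% of all genes, and 32 had every KO sample below every WT sample, against 9.35%. In bulk tissue, a smaller share of oligodendrocytes in the piece taken and less of this RNA per oligodendrocyte cannot be told apart. The number of calls rested on single libraries: without WT replicate 2, KO replicate 1, KO replicate 2 or KO replicate 3 in turn, 9, 15, 0 and 0 of the 38 genes passed, although 32, 33, 32 and 32 were still lower at an unadjusted p below 0.05 (edgeR). Over all genes the calls fell too, to 0.0902%, 0.205%, 0.0128% and 0.0128% lower, with 5.02%, 5.17%, 4.68% and 4.12% lower at an unadjusted p below 0.05. With both brain regions in one fit 5 of the 38 passed, and 4 passed when a log2 change beyond 1 was required. Shares of all genes under these settings are not given here.

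**Figure D1:**
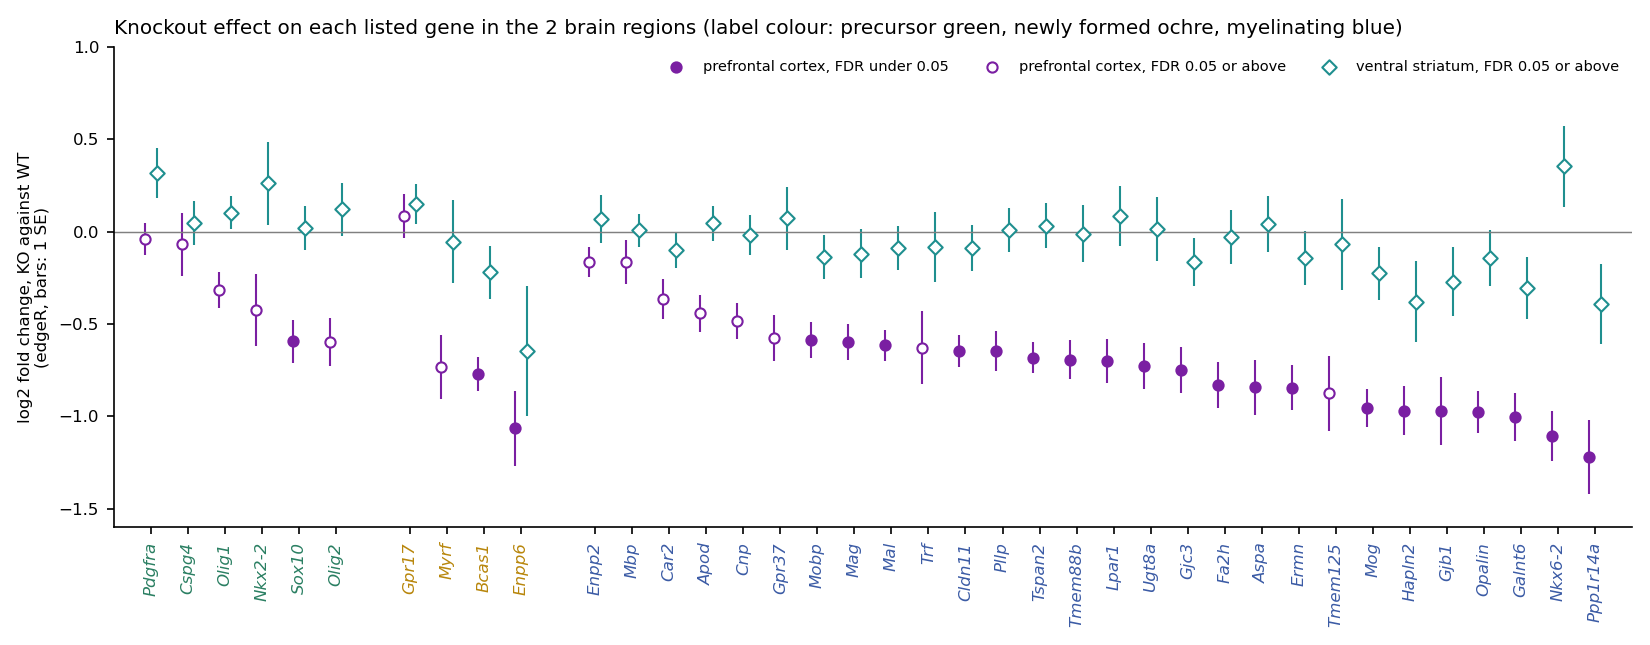
Log2 fold change of KO against WT (y axis, points with bars of 1 SE) for each of the 38 genes along the x axis, in the PFC (circles) and the STR (diamonds), filled where the adjusted p was below 0.05. In the PFC 37 of 38 points lie below 0 and 23 are filled, and in the STR the points scatter about 0 with none filled.

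Among the proteins of the myelin sheath and its membrane, 10 of 12 genes fell in the PFC. *Mog*, whose glycoprotein sits on the outermost face of myelin, was at 63.9, 79.0 and 79.9 CPM in the WT and 40.3, 38.5 and 36.1 CPM in the KO samples (log2 fold change -0.95, SE 0.10, adjusted p = 0.00369). *Opalin*, a transmembrane glycoprotein of central myelin, was at 32.1, 38.5 and 37.9 CPM in WT and 19.0, 17.1 and 19.0 CPM in KO (log2 fold change -0.98, SE 0.11, adjusted p = 0.00472). *Hapln2*, a link protein of the matrix at the nodes of Ranvier, was at 52.0, 71.5 and 56.6 CPM in WT and 35.4, 28.6 and 28.4 CPM in KO (log2 fold change -0.97, SE 0.13, adjusted p = 0.0102). For these 3 genes each KO sample lay below the lowest WT sample, WT replicate 1. The tetraspanin *Tspan2* was at 142, 160.2 and 157 CPM in WT and 103, 95.8 and 87.2 CPM in KO (log2 fold change -0.68, SE 0.08, adjusted p = 0.00472). *Mal*, a proteolipid of membrane trafficking, was at 191, 189 and 218 CPM in WT and 139.8, 129.9 and 119.8 CPM in KO (log2 fold change -0.61, SE 0.08, adjusted p = 0.0102). In both genes every KO sample lay below every WT sample. *Mag*, the adhesion molecule of the innermost myelin layer facing the axon, was at 151, 195 and 198 CPM in WT and 119.7, 118 and 121 CPM in KO (log2 fold change -0.60, SE 0.10, adjusted p = 0.0240). *Mobp*, a structural protein of compact myelin, was at 441, 458 and 569 CPM in WT and 342, 317 and 316 CPM in KO (log2 fold change -0.59, SE 0.10, adjusted p = 0.0258).

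The other genes of the sheath that fell were *Ermn*, *Cldn11* and *Pllp*. *Ermn*, which encodes a cytoskeletal protein of late oligodendrocytes, was at 100.2, 119 and 118 CPM in WT and 74.9, 61.3 and 51.5 CPM in KO (log2 fold change -0.84, SE 0.12, adjusted p = 0.0126). *Cldn11*, the claudin of the tight junctions between myelin layers, was at 118, 127 and 144 CPM in WT and 88.9, 80.2 and 79.0 CPM in KO (log2 fold change -0.64, SE 0.09, adjusted p = 0.0102). *Pllp*, plasmolipin, was at 67.4, 84.3 and 88.7 CPM in WT and 55.5, 49.0 and 48.7 CPM in KO (log2 fold change -0.65, SE 0.11, adjusted p = 0.0258). *Mbp* and *Cnp*, among the most abundant of the 38 genes, did not pass the test. *Cnp*, a phosphodiesterase of non-compact myelin, was at 245, 268 and 322 CPM in WT and 212, 189 and 195 CPM in KO (log2 fold change -0.48, SE 0.10, adjusted p = 0.0527), with no overlap between the groups. *Mbp*, the protein that holds the cytoplasmic faces of compact myelin together, was at 505, 502 and 706 CPM in WT and 521, 494 and 511 CPM in KO (log2 fold change -0.16, SE 0.12, adjusted p = 0.700), with overlapping groups. The 95% interval of the log2 change ran from -0.40 to 0.07 for *Mbp*, which leaves out the median of the myelinating genes, and 1 WT sample, replicate 3, stood above the other 5 samples.

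The sequence upstream of the start site was available in RefSeq (GRCm38.p6) for 28 of the 38 genes, and 6 of these windows are printed as examples. They stand before 5 of the genes that fell in the PFC (*Mag*, *Mog*, *Opalin*, *Ermn* and *Nkx6-2*) and before the precursor gene *Pdgfra*, which did not pass the test. The printed windows need not represent all 28, for which counts are given below the sequences. Each window holds the 250 bases before the RefSeq start, in the direction of the gene, from chr7:30914864-30915113 (*Mag*), chr17:37023399-37023648 (*Mog*), chr19:41077114-41077363 (*Opalin*), chr2:58052865-58053114 (*Ermn*) and chr7:139582798-139583047 (*Nkx6-2*) on the minus strand and from chr5:75152001-75152250 (*Pdgfra*) on the plus strand. The RefSeq start of *Pdgfra* lies 41 bases before the start in the GENCODE annotation. Capitals mark the letters ACAAAG or ACAATG, cores bound by SOX factors, and CTGGCAC or CTGGTAC, cores bound by MYRF, read on either strand.
Mag: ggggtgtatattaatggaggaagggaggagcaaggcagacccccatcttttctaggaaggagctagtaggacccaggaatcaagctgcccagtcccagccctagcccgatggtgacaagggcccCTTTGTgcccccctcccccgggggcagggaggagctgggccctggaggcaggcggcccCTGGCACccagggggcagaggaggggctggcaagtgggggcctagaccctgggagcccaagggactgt
Mog: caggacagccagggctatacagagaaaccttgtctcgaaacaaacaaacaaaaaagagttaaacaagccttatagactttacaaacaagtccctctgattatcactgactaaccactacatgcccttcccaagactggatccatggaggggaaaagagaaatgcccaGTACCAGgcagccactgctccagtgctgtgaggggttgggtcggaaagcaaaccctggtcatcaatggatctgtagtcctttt
Opalin: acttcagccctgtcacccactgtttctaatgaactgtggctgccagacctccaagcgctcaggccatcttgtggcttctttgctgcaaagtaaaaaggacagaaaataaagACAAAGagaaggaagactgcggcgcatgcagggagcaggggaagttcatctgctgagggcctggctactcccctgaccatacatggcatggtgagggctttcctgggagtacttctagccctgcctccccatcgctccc
Ermn: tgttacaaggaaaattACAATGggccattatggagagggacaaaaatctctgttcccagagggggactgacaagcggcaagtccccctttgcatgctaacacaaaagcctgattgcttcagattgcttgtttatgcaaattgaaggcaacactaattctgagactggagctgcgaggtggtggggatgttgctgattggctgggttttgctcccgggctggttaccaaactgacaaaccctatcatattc
Nkx6-2: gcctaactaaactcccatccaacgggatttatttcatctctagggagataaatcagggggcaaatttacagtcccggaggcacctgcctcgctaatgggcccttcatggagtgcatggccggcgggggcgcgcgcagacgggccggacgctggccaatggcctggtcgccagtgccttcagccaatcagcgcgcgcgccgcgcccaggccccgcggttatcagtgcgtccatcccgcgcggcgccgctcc
Pdgfra: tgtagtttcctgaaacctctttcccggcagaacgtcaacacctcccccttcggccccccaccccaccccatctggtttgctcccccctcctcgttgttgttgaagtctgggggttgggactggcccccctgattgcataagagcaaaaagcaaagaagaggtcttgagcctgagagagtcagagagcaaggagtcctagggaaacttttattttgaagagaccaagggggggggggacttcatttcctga

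The window of *Mag* held CTTTGT, 126 bases before the start, and CTGGCAC, 68 bases before it, that of *Mog* held GTACCAG, 83 bases before it, and those of *Opalin* and *Ermn* held ACAAAG and ACAATG, 139 and 234 bases before the start. Neither set of letters occurred in the windows of *Nkx6-2* and *Pdgfra*. SOX letters were present in 11 of the 28 windows (39.3%), against 25.2% of 32851 RefSeq windows of this length, and MYRF letters in 5 of 28 (17.9%), against 5.93%. Among the genes that fell in the PFC, 8 of 20 windows held SOX letters and 4 of 20 held MYRF letters, compared with 3 of 8 and 1 of 8 among the other listed genes. These counts describe letters in the windows and carry no test.

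Of the 7 enzymes, 5 fell in the PFC, among them those of galactolipid synthesis. *Ugt8a*, which adds galactose to ceramide, was at 75.7, 107 and 104 CPM in WT and 63.7, 55.0 and 54.6 CPM in KO (log2 fold change -0.73, SE 0.12, adjusted p = 0.0272). *Fa2h*, which hydroxylates the fatty acids of myelin galactolipids, was at 50.2, 72.1 and 65.5 CPM in WT and 36.3, 36.5 and 32.9 CPM in KO (log2 fold change -0.83, SE 0.13, adjusted p = 0.0153). *Aspa*, which splits N-acetylaspartate, was at 33.8, 44.5 and 42.2 CPM in WT and 27.5, 19.5 and 20.1 CPM in KO (log2 fold change -0.84, SE 0.15, adjusted p = 0.0277). In all 3 genes WT replicate 1 was the lowest WT sample and still lay above every KO sample. *Galnt6*, which starts mucin-type O-glycosylation, was at 34.6, 45.4 and 35.9 CPM in WT and 19.8, 21.1 and 17.2 CPM in KO (log2 fold change -1.004, SE 0.13, adjusted p = 0.00839). *Enpp6*, a choline phosphodiesterase that marks newly formed oligodendrocytes, was at 10.1, 12.6 and 11.3 CPM in WT and 7.18, 4.55 and 4.56 CPM in KO (log2 fold change -1.06, SE 0.20, adjusted p = 0.0408). The 2 enzymes that did not pass were *Enpp2* (autotaxin), with a log2 fold change of -0.16 (adjusted p = 0.502), and *Car2* (carbonic anhydrase), with -0.37 (adjusted p = 0.178).

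Both gap junction genes fell. *Gjb1* (connexin 32) was at 21.5, 36.4 and 28.7 CPM in WT and 16.8, 14.7 and 12.7 CPM in KO (log2 fold change -0.97, SE 0.18, adjusted p = 0.0404), and *Gjc3* (connexin 29) at 67.2, 96.7 and 80.6 CPM and 52.6, 43.4 and 50.0 CPM (log2 fold change -0.75, SE 0.13, adjusted p = 0.0258). Of 6 other genes, 3 fell. The largest fold change among the 38 belonged to *Ppp1r14a*, an inhibitor of myosin phosphatase, at 14.2, 22.8 and 25.0 CPM in WT and 8.55, 9.93 and 7.91 CPM in KO (log2 fold change -1.22, SE 0.20, adjusted p = 0.0258). *Bcas1*, which marks oligodendrocytes at the onset of myelination, was at 129, 145 and 167 CPM in WT and 88.1, 86.3 and 83.0 CPM in KO (log2 fold change -0.77, SE 0.09, adjusted p = 0.00472). All 3 KO samples of *Bcas1* lay below all 3 WT samples. The transmembrane gene *Tmem88b* was at 59.5, 76.0 and 75.7 CPM in WT and 43.8, 44.9 and 41.8 CPM in KO (log2 fold change -0.69, SE 0.10, adjusted p = 0.0153). *Tmem125*, *Trf* (transferrin) and *Apod* (apolipoprotein D) had log2 fold changes of -0.87, -0.63 and -0.44 with adjusted p = 0.0850, 0.208 and 0.0782 (edgeR).

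Transcription factors divided, with 2 of 6 genes past the test. *Nkx6-2*, a homeodomain factor of maturing oligodendrocytes, was at 23.1, 30.2 and 29.7 CPM in WT and 13.4, 12.9 and 12.2 CPM in KO (log2 fold change -1.10, SE 0.13, adjusted p = 0.00472). *Sox10*, required for terminal differentiation, was at 65.7, 92.4 and 77.3 CPM in WT and 54.1, 54.2 and 48.0 CPM in KO (log2 fold change -0.59, SE 0.12, adjusted p = 0.0471). *Myrf*, which drives myelin genes once precursors exit the cell cycle, was at 77.4, 117 and 90.1 CPM in WT and 70.4, 51.4 and 49.8 CPM in KO (log2 fold change -0.73, SE 0.17, adjusted p = 0.114). In *Myrf* no KO sample reached the lowest WT sample, but the WT samples were widely spread. *Olig2*, which specifies the lineage, was at 44.4, 64.7 and 53.7 CPM in WT and 37.9, 32.1 and 38.1 CPM in KO (log2 fold change -0.60, SE 0.13, adjusted p = 0.0701), also without overlap. *Olig1* and *Nkx2-2* had log2 fold changes of -0.31 and -0.42 (adjusted p = 0.203 and 0.444, edgeR).

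The surface proteins of precursors showed no difference beyond the spread between samples. *Pdgfra* was at 68.4, 80.1 and 67.9 CPM in WT and 72.8, 66.0 and 72.4 CPM in KO (log2 fold change -0.04, SE 0.09, adjusted p = 0.925), with a 95% interval of the log2 change from -0.21 to 0.13. *Cspg4* was at 23.9, 34.0 and 20.3 CPM in WT and 22.2, 25.8 and 27.9 CPM in KO (log2 fold change -0.07, SE 0.17, adjusted p = 0.935), with an interval from -0.40 to 0.26. The groups overlapped in both genes, and the interval of *Pdgfra* leaves out a fall as large as the median of the myelinating genes. Among the receptors, *Gpr17* of the premyelinating stage was at 60.5, 58.8 and 44.8 CPM in WT and 65.3, 56.6 and 53.4 CPM in KO (log2 fold change 0.09, SE 0.12, adjusted p = 0.865), the single fold change above 0 among the 38. *Lpar1*, a receptor of lysophosphatidic acid on mature oligodendrocytes, fell from 52.1, 70.3 and 65.5 CPM to 42.4, 35.8 and 37.7 CPM (log2 fold change -0.70, SE 0.12, adjusted p = 0.0258). *Gpr37* did not pass, with a log2 fold change of -0.58 (adjusted p = 0.0701).

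**Figure D2:**
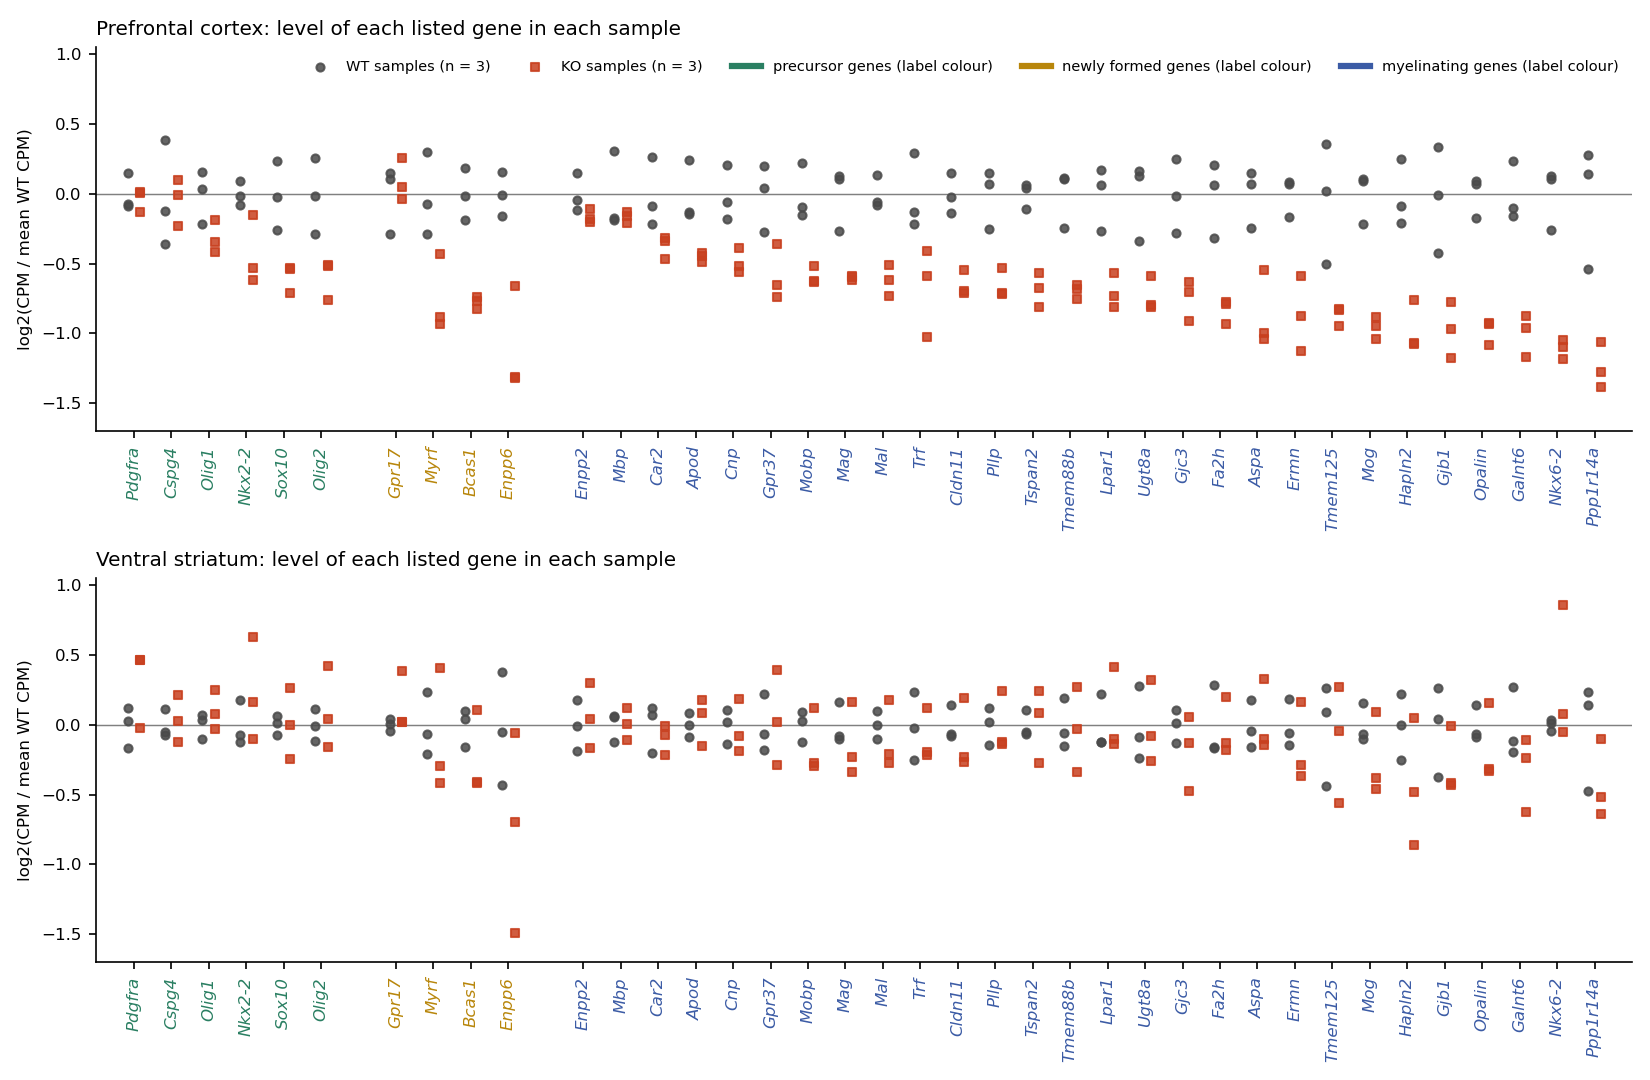
Expression of each of the 38 genes in every PFC sample (top) and STR sample (bottom) as log2 of CPM over the mean WT CPM, with colour for genotype and genes grouped by stage on the x axis. In the PFC most KO points of the myelinating genes lie below 0, with sample medians of -0.57, -0.72 and -0.76, and in the STR the KO points spread on both sides of 0.

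The summed CPM of the 38 genes was 3707 to 4661 in WT and 2883 to 3132 in KO PFC, without overlap. WT samples were not uniform: replicate 1 was the lowest WT sample for 31 of the 38 genes, against 28.8% of all genes tested, and its median over the myelinating genes of log2(CPM + 0.5) was -0.21 from the WT mean, against 0.11 in each of the other WT samples. All 3 KO samples lay below it, at -0.57, -0.72 and -0.76.

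Further genes of the lineage, in lists that share none of the 38, were read in the same fit. These lists, like the 38 genes, were chosen with earlier results of these data known, so they give no separate support. Of 34 other myelinating genes 8 fell (median log2 fold change -0.46, 28 lower at an unadjusted p below 0.05), of 18 other newly formed genes tested 1 fell (median -0.09), and of 19 other precursor genes 0 changed by edgeR (median -0.06, 1 lower and 1 higher at an unadjusted p below 0.05). Of all genes tested, 0.475% fell, and 6.5% were lower and 4.73% higher at the unadjusted p. Among the myelinating genes that fell were *Anln* (anillin, log2 fold change -0.94, adjusted p = 0.0494), *Prr5l* (-0.87, 0.0280), *Evi2a* (-0.84, 0.0191), the protease *Adamts4* (-0.69, 0.0484), the ceramide synthase *Cers2* (-0.49, 0.0469), the actin-severing *Gsn* (-0.46, 0.0349) and *Cyp2j12* (-1.55, 0.0408). The newly formed gene was the plexin *Plxnb3* (-0.84, adjusted p = 0.0263).

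Markers of other cell types were read in the same PFC samples. The 12 pan-neuronal markers summed to 4337 to 5672 CPM in WT and 4836 to 5214 CPM in KO, with a median log2 fold change of 0.00, and none of them passed the test or had an unadjusted p below 0.05. Astrocyte markers summed to 2951 to 3207 CPM in WT and 2790 to 2934 CPM in KO (median -0.15), and *Gfap*, the intermediate filament of astrocytes, was 1 of 12 that fell (log2 fold change -0.49, adjusted p = 0.0114, edgeR). Microglia markers summed to 603 to 625 CPM in WT and 565 to 582 CPM in KO (median -0.15), with 1 of 12 lower at an unadjusted p below 0.05 and none past the test. Endothelial markers summed to 326 to 405 CPM in WT and 273 to 347 CPM in KO, with 4 of 8 lower at an unadjusted p below 0.05 and none past the test. At that p (edgeR), 6.5% of all genes tested were lower and 4.73% higher. The 6 ependymal markers, of which 3 passed the filter on low counts, summed to 15.3 to 18.9 CPM in WT and 6.84 to 10.7 CPM in KO (median -1.03). Ciliated ependymal cells line the ventricles, and *Foxj1*, their defining transcription factor, missed the threshold (adjusted p = 0.0503), while *Ccdc153* was at 0 in at least 1 KO sample. The 6 markers of peripheral myelin summed to 165 to 195 CPM in WT and 172 to 205 CPM in KO, with 3 tested (median -0.04) and none at an unadjusted p below 0.05, and *Pmp2* was at 0 in every PFC sample. The part of the glial, endothelial and ependymal differences in the result for the 38 genes was not tested.

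**Figure D3:**
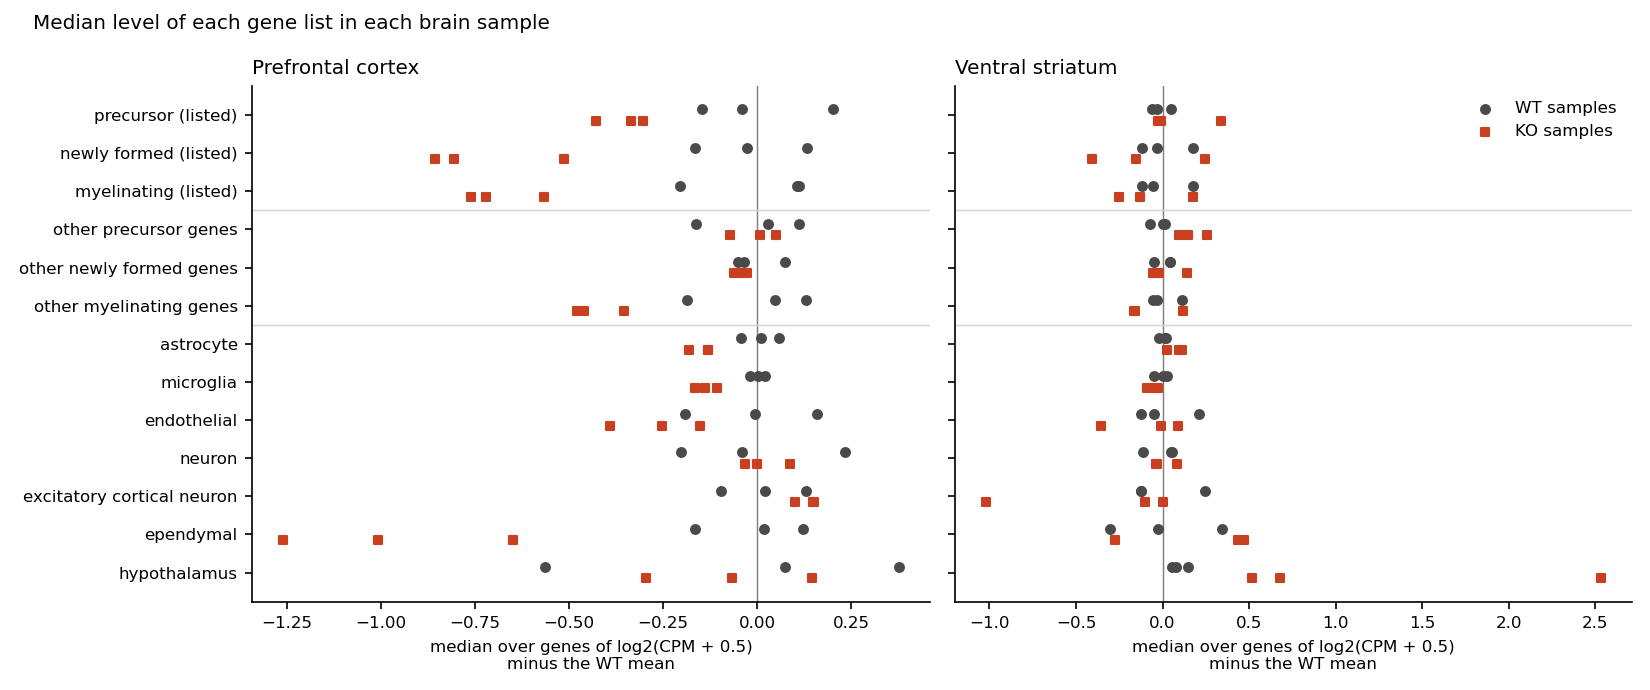
Median over the genes of each list of log2(CPM + 0.5) minus the WT mean (x axis), 1 point per sample, in the PFC (left) and the STR (right), with a row for each list. In the PFC the KO points of the 3 stages of listed genes and of the other myelinating, astrocyte, microglia and ependymal lists stand below all WT points, and those of the neuron and other precursor lists overlap them.

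In the STR, none of the 38 genes passed the test. By edgeR's quasi-likelihood test 0 of 38 passed in either direction, as did 0 of the 15476 genes tested (0.0%), and DESeq2, the exact test and the likelihood ratio test also called 0 of the 38. The deleted gene *Phf8* itself missed the threshold in the STR (log2 fold change -1.37, SE 0.15, adjusted p = 0.0956, edgeR). The absence of calls therefore does not show that no gene changed. At an unadjusted p below 0.05, 1 gene was higher and 0 lower, against 5.67% and 3.02% of all genes. Median log2 fold changes were 0.11 for the precursor, -0.14 for the newly formed and -0.08 for the myelinating genes, and WT and KO samples overlapped in all 38, where in 5.87% of all genes the KO samples lay wholly below and in 7.57% wholly above WT. The KO samples differed among themselves, and replicate 1, the library with hypothalamic markers, was the highest KO sample for 35 of the 38 genes, against 30.2% of all genes tested.

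*Mog* was at 55.9, 66.8 and 57.3 CPM in the WT and 63.8, 46.2 and 43.7 CPM in the KO samples of the STR (log2 fold change -0.23, SE 0.14, adjusted p = 0.721). *Opalin* was at 25.1, 29.3 and 25.5 CPM in WT and 29.6, 21.4 and 21.2 CPM in KO (log2 fold change -0.14, SE 0.15, adjusted p = 0.857). *Bcas1* was at 116, 138 and 133 CPM in WT and 138, 96.9 and 96.7 CPM in KO (log2 fold change -0.22, SE 0.14, adjusted p = 0.728). In these 3 genes KO replicate 1 lay within the WT range or just above it and the other KO samples lay below it, and the same held for the sheath genes *Mag* and *Mobp*. *Mag* was at 141, 169 and 143 CPM in WT and 169, 129 and 119.6 CPM in KO (log2 fold change -0.12, SE 0.13, adjusted p = 0.864). *Mobp* was at 409, 474 and 454 CPM in WT and 485, 364 and 368 CPM in KO (log2 fold change -0.14, SE 0.12, adjusted p = 0.817). *Mbp* and *Cnp* overlapped more closely. *Mbp* was at 439, 495 and 498 CPM in WT and 517, 443 and 479 CPM in KO (log2 fold change 0.01, SE 0.09, adjusted p = 0.993). *Cnp* was at 229, 272 and 256 CPM in WT and 286, 221 and 239 CPM in KO (log2 fold change -0.02, SE 0.11, adjusted p = 0.983).

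Among the transcription factors in the STR, *Nkx6-2* was at 26.2, 27.7 and 27.3 CPM in WT and 49.0, 26.1 and 28.6 CPM in KO, with replicate 1 alone standing high (log2 fold change 0.35, SE 0.22, adjusted p = 0.718). *Sox10* was at 67.7, 74.3 and 72.0 CPM in WT and 85.4, 71.2 and 60.2 CPM in KO (log2 fold change 0.02, SE 0.12, adjusted p = 0.983). *Myrf* was at 68.8, 84.6 and 62.3 CPM in WT and 95.3, 53.8 and 58.4 CPM in KO, and *Olig2* at 45.2, 53.1 and 48.8 CPM and 65.5, 44.0 and 50.4 CPM. For all 4 factors KO replicate 1 was the highest of the 6 samples. The precursor receptor *Pdgfra* was the gene with an unadjusted p below 0.05, at 80.4, 75.5 and 66.0 CPM in WT and 102, 72.9 and 102 CPM in KO (log2 fold change 0.32, SE 0.14, adjusted p = 0.565). *Cspg4* was at 28.3, 31.7 and 27.8 CPM in WT and 34.0, 29.8 and 26.8 CPM in KO, and *Gpr17* at 67.2, 65.4 and 63.4 CPM and 85.1, 66.1 and 66.1 CPM. *Enpp6*, the least abundant of the genes named here, was at 6.67, 8.97 and 5.12 CPM in WT and 4.26, 2.46 and 6.64 CPM in KO (log2 fold change -0.64, SE 0.35, adjusted p = 0.663), with overlapping groups.

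Without KO replicate 1, 14 of the 38 genes were lower in STR KO at an unadjusted p below 0.05, against 2.07% of all genes tested, and 0 passed the adjusted threshold (edgeR). The medians were then -0.02 for the precursor, -0.39 for the newly formed and -0.19 for the myelinating genes. The log2 fold changes of *Mog* and *Bcas1* were then both -0.42, and that of *Opalin* was -0.32. *Mag* and *Mobp* were both at -0.29, *Cnp* at -0.14 and *Mbp* at -0.06. In replicate 1 the excitatory neuron markers stood at -1.02 and the striatal projection neuron markers at -0.34 relative to the WT mean (log2), and the part of its tissue makeup in the STR result was not tested.

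Whether KO changed the genes differently in both regions was tested as an interaction over the 12 brain samples. The KO effect in the PFC minus that in the STR was below 0 for all 38 genes, against 48.6% of all genes tested, with a median of -0.60 log2 units. None of the 38 passed the adjusted threshold with edgeR's quasi-likelihood test, where 0.0% of all genes were called lower and 0.00624% higher. At an unadjusted p below 0.05, 28 were lower and 0 higher, against 3.89% and 2.51% of all genes, and DESeq2 and the likelihood ratio test each called 2. Same-numbered samples of both regions deviated together, and with the number as a block 3 genes passed and 33 were lower at an unadjusted p below 0.05, against 5.61% of all genes. These were *Nkx6-2* (difference -1.39, SE 0.20, adjusted p = 0.0475), *Ermn* (-0.67, SE 0.11, adjusted p = 0.0490) and *Aspa* (-0.85, SE 0.14, adjusted p = 0.0490), all by edgeR. Shares of all genes called at the adjusted threshold by DESeq2, the likelihood ratio test and the block are not given here. Those counts of calls describe only the listed genes. By stage, without the block, 23 of 28 myelinating, 1 of 4 newly formed and 4 of 6 precursor and lineage genes had an unadjusted p below 0.05. Without STR KO replicate 1, the count at an unadjusted p below 0.05 was 21 of 38 (2.6% of all genes), 0 passed the adjusted threshold and the median difference was -0.45.

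The difference was largest for *Nkx6-2*, at -1.43 without the block (SE 0.28, adjusted p = 0.384, edgeR), where the fold change was below 0 in the PFC and above 0 in the STR, with STR KO replicate 1 the sample that stood high. *Mog* differed by -0.70 (SE 0.19, adjusted p = 0.549) and *Opalin* by -0.81 (SE 0.19, adjusted p = 0.386). The differences were -0.04 for *Gpr17*, -0.08 for *Cspg4* and -0.14 for *Mbp*, while *Olig2*, which also missed the threshold in the PFC, differed by -0.69 (SE 0.21, adjusted p = 0.620).

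In WT brain, 12 of the 38 genes were lower in the STR than in the PFC, in samples that also serve as controls above. With edgeR the 12 genes were lower and 0 were higher, against 13.0% and 11.4% of all genes, and with same-numbered samples as a block 24 of 38 were lower, against 18.2% of all genes lower and 16.5% higher. Leaving out 1 library left 5 to 18 called, with 6 without STR WT replicate 1, 5 without STR WT replicate 3, 5 without PFC WT replicate 2, 8 without PFC WT replicate 3 and 18 without PFC WT replicate 1, and none passed when a log2 change beyond 1 was required. The 12 were *Enpp6* (log2 difference -0.75), *Enpp2* (-0.67), *Aspa* (-0.60), *Galnt6* (-0.58), *Lpar1* (-0.55), *Ugt8a* (-0.49), *Ermn* (-0.48), *Opalin* (-0.48), *Gpr37* (-0.46), *Tmem88b* (-0.38), *Mog* (-0.35) and *Tspan2* (-0.32). None of the precursor and lineage genes was among them, and *Pdgfra* differed by -0.0047 (SE 0.10).

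To compare levels between genes, counts were divided by exon length and library total (RPKM), and the means below are over 3 WT samples with their SD. The highest levels in WT PFC were those of *Cnp* (76.4 ± 9.44), *Mal* (71.6 ± 4.33), *Mobp* (71.3 ± 8.70), *Cldn11* (69.2 ± 5.97), *Car2* (67.3 ± 10.8) and *Mbp* (67.3 ± 12.3), and neighbours in this order differed by less than the larger of their SDs. *Enpp6* (1.77 ± 0.220), *Cspg4* (2.19 ± 0.648) and *Nkx2-2* (2.30 ± 0.191) were the lowest. The order depends on the length used: with the longest transcript in place of all exons, *Mobp* stood at 149 and *Mbp* at 119 RPKM in the PFC, ahead of *Cnp* at 95.7 RPKM. In the STR the order began with *Cnp* (69.3 ± 5.33) and *Mobp* (65.1 ± 4.27).

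Averaged over cultures, NPCs expressed most early genes of the lineage above the level of adult brain and most myelin genes far below it. This is a description across separately prepared tissues with no test. Median RPKM in WT was 28.4 in NPCs and 14.3 in the PFC for the precursor and lineage genes, 33.2 and 10.8 for the newly formed genes, and 2.45 and 23.2 for the myelinating genes. By these means, NPCs were above the PFC in 6 of 6, 3 of 4 and 1 of 28 genes. The means hide WT culture 2, where *Sox10*, *Pdgfra* and *Enpp6* were at 5.31, 24.8 and 2.91 CPM. The lowest WT PFC samples were at 65.7, 67.9 and 10.1 CPM, scaled separately. *Olig1*, *Olig2*, *Cspg4* and *Nkx2-2* were above every WT PFC sample in that culture too. The transcription factors *Olig1* and *Olig2* reached 864 ± 60.6 and 391 ± 3.63 RPKM in NPCs, against 62.4 ± 7.49 and 21.5 ± 4.35 in the PFC. *Cspg4* was at 22.5 ± 7.05 RPKM in NPCs and 2.19 ± 0.648 in the PFC. The myelinating gene above its PFC level was *Cnp*, at 119.8 ± 65.3 RPKM in NPCs. *Mobp* was at 0.590 ± 0.518, *Mog* at 0.305 ± 0.276 and *Ermn* at 0.0137 ± 0.0122 RPKM in NPCs, so these late sheath genes were close to 0. *Mbp* lay between, at 52.5 ± 44.6 RPKM with a wide spread over cultures.

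**Figure D4:**
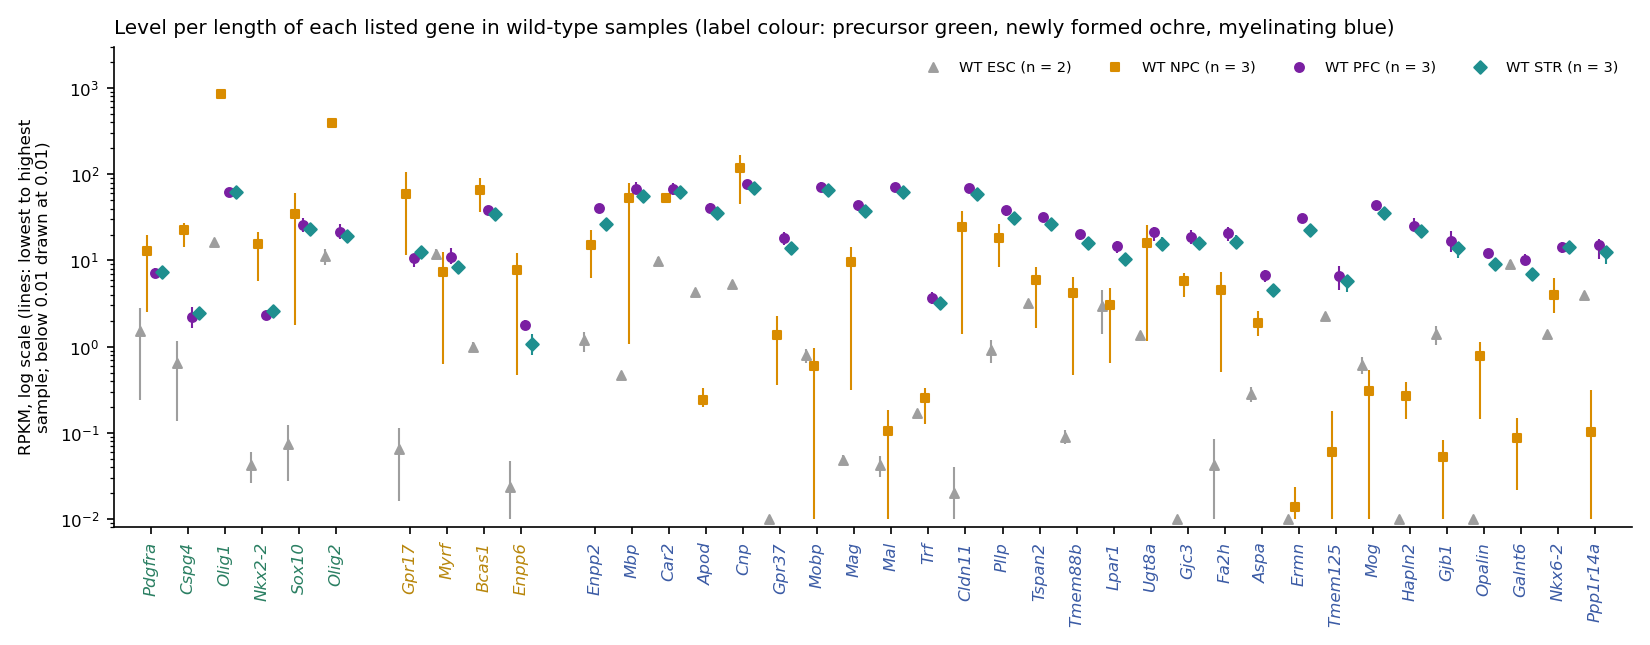
Expression per length (RPKM, log axis) of the 38 genes in WT ESC, NPC, PFC and STR samples, with the point at the mean and a line from the lowest to the highest sample, and values under 0.01 drawn at 0.01. NPC points of the precursor genes lie above the brain points, and those of most myelinating genes lie far below.

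In NPCs, 30 of the 38 genes passed the filter on low counts and none of these passed the test between KO and WT. The 8 untested genes were *Galnt6*, *Hapln2*, *Mal*, *Ermn*, *Gjb1*, *Ppp1r14a*, *Tmem125* and *Apod*, all of the myelinating stage. With edgeR's quasi-likelihood test 0 of 30 passed and 0 had an unadjusted p below 0.05, against 0.00697% of all genes called lower and 0.0% higher, and 1.53% lower and 1.51% higher at the unadjusted p, and DESeq2, the exact test and the likelihood ratio test called 0 as well. The cultures numbered 2 stood apart in both genotypes. *Mbp* was at 685, 8.80 and 648 CPM in the WT and 897, 43.9 and 528 CPM in the KO cultures, and *Sox10* at 188, 5.31 and 122 CPM and 133, 13.2 and 99.2 CPM. *Enpp6* was at 78.3, 2.91 and 67.7 CPM in WT and 99.6, 8.90 and 66.8 CPM in KO cultures. Replicate 2 was the lowest in both genotypes for 22 of the 30 genes, against 26.6% of 14351 genes tested, comprising 3 of 6 precursor and lineage, 4 of 4 newly formed and 15 of 20 myelinating genes. The receptor *Pdgfra* followed this order, at 199.8, 24.8 and 162 CPM in WT and 131, 31.1 and 95.4 CPM in KO cultures. *Olig2*, by contrast, was even across cultures, at 995, 980.3 and 989 CPM in WT and 936, 998 and 968 CPM in KO. *Cspg4* was at 173, 304 and 325 CPM in WT and 228, 196 and 288 CPM in KO cultures and showed no fall in replicate 2 of the WT. Without replicate 2 of either genotype, 0 of 31 tested genes passed (edgeR), with 2 higher and 2 lower at an unadjusted p below 0.05, against 2.71% of all genes in each direction. With all cultures, the log2 fold change of *Mbp* was 0.13, with a 95% interval from -2.68 to 2.94. That interval includes a fall as large as the PFC median of the myelinating genes. It comes from a fit without a block, so its width also holds the difference of the cultures numbered 2, which both genotypes shared. An interval with the block is not given here. For *Olig2* the log2 fold change was -0.03, with an interval from -0.19 to 0.12.

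**Figure D5:**
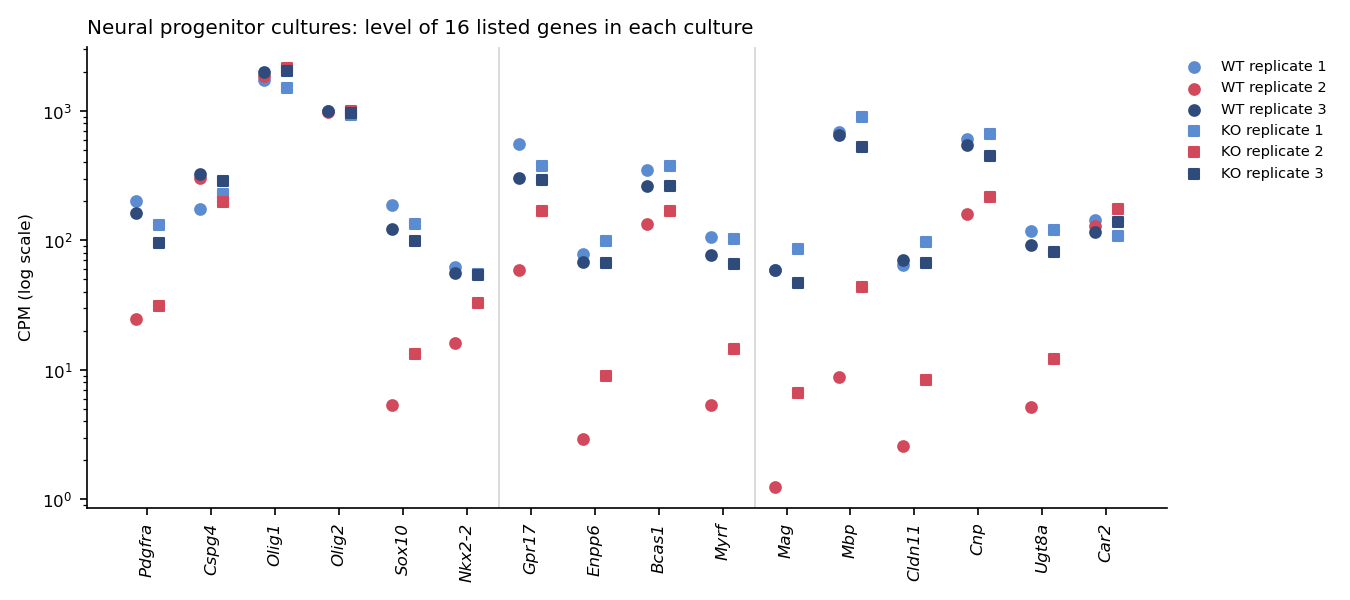
CPM (log axis) of 16 listed genes in the 6 NPC cultures, with circles for WT, squares for KO and a colour for each replicate number. Replicate 2 of both genotypes lies at the bottom for genes such as *Mbp* and *Sox10*, while *Olig2* is level across all cultures.

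WT NPCs were also set against WT ESCs, which lie outside the lineage. Of 35 genes tested, 22 were higher and 5 lower in NPCs (edgeR), where 34.6% of all genes were higher and 36.6% lower. The 5 lower genes, *Galnt6*, *Gjb1*, *Ppp1r14a*, *Tmem125* and *Apod*, belong to the myelinating list and were also among the 8 too low to test between NPC genotypes. Between KO and WT ESCs 0 of 23 tested genes passed and 0 had an unadjusted p below 0.05 with edgeR, against 0.0% of all genes called, and 0.418% lower and 0.716% higher at the unadjusted p, and DESeq2, the exact test and the likelihood ratio test called 0. With 2 samples per genotype, the spread between ESC samples was the widest of the series in fits without a block. The biological coefficient of variation was 31.4%, against 8.52% in the PFC, 11.1% in the STR and 21.2% in NPCs. In ESCs this spread includes deviations shared by same-numbered samples of both genotypes (r = 0.888), and in NPCs likewise (r = 0.538 to 0.721). *Phf8* itself, with a log2 fold change of -1.79 (SE 0.22), did not pass in ESCs either.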

How the data were processed

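The deposited files held whole-number read counts per Ensembl gene for 22 libraries, made by the authors from Illumina TruSeq RNA libraries by alignment to mm10 with STAR and counting over Ensembl release 75 with HTSeq, after CASAVA 1.7 according to the submitters' processing notes. The strand setting of the counting is not given in the sources used here, so reads of overlapping or antisense genes cannot be told apart. Between 20.2% and 53.1% of the reads in a file fell in rows that name no gene, and these rows were left out. Names, exon lengths and start sites came from GENCODE M21 (GRCm38), which matched 37693 of 39179 identifiers and all 38 listed genes, and promoter windows came from RefSeq GRCm38.p6.

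Counts were fitted with R 4.3.3 and edgeR 4.0.16 (TMM scaling, filterByExpr, robust quasi-likelihood F test) within each tissue, without a block, with Benjamini-Hochberg adjustment over all genes tested at 0.05. Intervals are the fold change ± 1.96 SE. Differences between regions were tested as an interaction over 12 brain samples. RPKM was the count over the library total and the length of all exons. The steps were tested on simulated counts. Groups followed the sample titles. Named genes were the 38 listed genes, with values by sample for those that passed in the PFC and for the defining genes of each stage, and members of fixed lineage and cell type lists. The 38 genes and all lists were chosen with earlier results of these data known. Some members of the further lists are not reported here.

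Replicates of a group differed by more than counting noise (chi-square per degree of freedom 1.89 to 40.5). Same-numbered samples deviated together in NPCs (r = 0.538 to 0.721 over genes) and between PFC and STR of a genotype (r = 0.147 to 0.400), but not between WT and KO in the PFC (mean r 0.0247) or the STR (mean r 0.0588). In ESCs same-numbered samples of both genotypes also deviated together (r = 0.888). With 2 samples per genotype, the value for different numbers is its mirror image (-0.888). The pairing rests on the shared numbers in the titles and on these correlations. Alternatives were DESeq2 1.42.0, the edgeR exact and likelihood ratio tests, RLE scaling, other filters, no robust estimation, a replicate block, both tissues in one fit, a log2 change beyond 1, the longest transcript for RPKM and each library left out. NPC fits without replicate 2 of both genotypes were added after seeing the data.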

Additional observations from a re-analysis of the deposited data

How the results depend on the processing

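In the PFC, 22 to 30 of the 38 genes were called under DESeq2 (29), the edgeR exact (29) and likelihood ratio (29) tests, RLE scaling (23), the replicate block (26), a minimum of 10 counts in each sample (22) and unfiltered counts (30), and 20 without robust estimation. With both regions in one fit 5 passed, with a log2 change beyond 1 required 4 passed, and leaving out 1 library gave 0 to 28. In the fits without 1 library, 0.0128% to 0.738% of all genes were called lower. Shares of all genes called under the other PFC settings are not given here, so those counts describe only the listed genes. The interaction gave 2 with DESeq2, 2 with the likelihood ratio test and 3 with the replicate block. For WT STR against WT PFC the block gave 24, a log2 change beyond 1 gave 0 and leaving out 1 library gave 5 to 18. For WT NPC against WT ESC a minimum of 10 counts in every sample left 11 higher of only 16 listed genes tested (34.9% of all genes higher). The replicate block, for samples that share only a number in their titles, called 1 of 23 genes (*Enpp2*, higher) in ESCs, against 2.04% of all genes higher and 1.36% lower. Same-numbered ESC samples of both genotypes deviated together over genes (r = 0.888). The block called 0 in the STR, and in NPCs it also changed no call.

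Fold changes near 0 changed sign when 1 library was left out, and without STR KO replicate 1 alone 11 of the 38 in the STR went from above to below 0. Among the 11 were *Aspa*, *Enpp2*, *Gpr37*, *Lpar1*, *Pllp* and *Ugt8a*, for which no range is given. Each gene was refitted without each library in turn, and ranges are given here for genes that changed sign, in the STR for only some of them. In the PFC the log2 fold changes then ranged from -0.20 to 0.19 for *Cspg4*, from -0.0277 to 0.16 for *Gpr17*, from -0.25 to 0.0154 for *Mbp* and from -0.0798 to 0.0509 for *Pdgfra*. In the STR they ranged from -0.14 to 0.0576 for *Cnp*, from -0.0507 to 0.12 for *Cspg4*, from -0.0551 to 0.0600 for *Mbp*, from -0.36 to 0.0994 for *Myrf*, from -0.0620 to 0.24 for *Olig2*, from -0.12 to 0.13 for *Sox10* and from -0.0901 to 0.16 for *Tspan2*. The cause of these changes was not tested, beyond the smaller number of samples in each fit. With the longest transcript as length, 20 of 38 RPKM values moved by more than the spread between replicates.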

Other observations

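In ESCs, 11 of the 23 listed genes tested were higher in replicate 2 than in replicate 1 of both genotypes, against 38.2% of all genes tested, and 3 of them were more than 3 times higher in both, against 4.89%. *Pdgfra*, the growth factor receptor that also marks mesodermal and primitive endoderm cells, had 28 and 373 reads in the WT and 43 and 343 reads in the KO samples. *Cspg4* stood at 1.62 and 13.8 CPM in WT and 1.54 and 18.1 CPM in KO, and *Lpar1* at 6.04 and 19.7 CPM and 4.26 and 20.5 CPM. These 3 genes were chosen after their values were seen, and the difference between replicate numbers was not tested.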
